A study of Mus musculus with 6 samples.

Results

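Acyl-CoA synthetases and acyl-CoA thioesterases were examined in mouse liver by RNA sequencing, together with relatives that repair or degrade coenzyme A (CoA) esters. The members were all genes whose symbols begin with Acsl, Acsm, Acss, Acsf, Acsbg or Acot followed by a number, plus Echdc1, Echdc2, Echdc3, Nudt7 and Nudt19. Names marked as pseudogenes were to be left out, and none matched. This gave 36 of the 54232 genes of the table. One match, Acss2os, is an antisense RNA of the Acss2 locus and encodes no synthetase. After removal of genes with low counts, 28 of the 36 were among the 13304 genes tested, and 8 were not.

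The study compared livers of Nogo-/- mice, here called knockout, with livers of wild-type (WT) littermates. All mice were 8 weeks old and ate normal chow, and 3 livers of each genotype were sequenced. The title gives the effect of Nogo deficiency on insulin signalling as its subject. The labels do not say which part of the gene is deleted, nor in which cells, and name no other allele, drug or treatment. Libraries keep their label numbers, wild type 2, 4 and 11 and knockout 1, 2 and 4.

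A fatty acid enters metabolism only after a synthetase has joined it to CoA at the expense of ATP, and each synthetase family prefers a range of chain lengths. Thioesterases do the reverse, releasing the free acid and CoA. Liver runs both reactions in the cytosol, mitochondria, peroxisomes and endoplasmic reticulum, where acyl-CoA is burned, built into lipids or conjugated. The Echdc proteins resemble enoyl-CoA hydratases, and Nudt7 and Nudt19 are peroxisomal hydrolases that split CoA itself.

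The 6 libraries held 17568223 to 20902369 counts. Levels are CPM, the counts of each library brought to the same size by the trimmed mean of M values (TMM), and a floor of 3 counts equalled 0.139 to 0.199 CPM, for counting error only. Rtn4, which encodes Nogo and was read as the check of genotype, had 40.5, 52.9 and 56.0 CPM in wild type and 4.63, 8.22 and 4.69 CPM in knockout, a fall of 3.08 ± 0.26 on the log2 scale (SE, edgeR adjusted p = 0.00101). Mitochondrially encoded genes took 6.17 to 6.90% of counts in wild type and 28.6, 19.7 and 11.8% in knockout 1, 2 and 4. The summed level of 9 hepatocyte markers was 100917 to 121225 CPM in wild type and 93591 to 132860 CPM in knockout. Alb alone had 59163 to 70802 and 49072 to 70030 CPM, so the sum says little of the other markers. Of the 9, Serpina1c was called higher, at a log2 fold change of 1.52 ± 0.25 (adjusted p = 0.00693). Cps1 was called lower, at -1.52 ± 0.29 (adjusted p = 0.0102). Kidney, testis, fat and muscle lists each summed to under 1 CPM in every library, with Kap, Slc12a1, Slc22a6, Odf1, Lep and Ucp1 at 0 counts throughout. Pancreas markers were present, with sums of 1.30 to 45.8 CPM in wild type and 15.6 to 18.3 CPM in knockout. Brain markers summed to 13.9 to 15.4 and 14.3 to 16.3 CPM, and intestine markers to 54.0 to 71.8 and 59.8 to 76.9 CPM. Sums of Kupffer cell, cholangiocyte, stellate cell and red cell markers overlapped between genotypes. Of their markers, 1 of 7, 1 of 5, 0 of 6 and 2 of 4 were called. Lymphocyte, neutrophil and some sinusoidal endothelial markers moved with genotype. The summed level of 9 lymphocyte markers was 5.22 to 6.64 CPM in wild type and 14.3 to 27.2 CPM in knockout, with 6 of 8 tested called higher. The 5 neutrophil markers summed to 2.61 to 3.39 and 6.80 to 17.2 CPM, with 3 of 3 called higher. For 6 sinusoidal endothelial markers they were 132 to 176 and 78.8 to 133 CPM, with 3 called lower. The part of these shifts in the results that follow was not tested. In bulk liver, fewer cells of a type and less RNA per cell cannot be told apart.

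Knockout livers carried less RNA for 5 members, among them synthetases of short-, medium- and long-chain acids, and more for 2 others. Acss3, Acss2, Acsm3, Acsl5 and Echdc1 fell, and Echdc2 and Nudt19 rose, at an edgeR adjusted p under 0.05. Thus 2 of the 28 tested members were called higher, where 8.76% of all tested genes were, and 5 were called lower, where 8.29% of all tested genes were. Calls in either direction made up 25.0% of the members and 17.0% of all tested genes. The median log2 fold change of the 28 was -0.45, beside 0.01 over all tested genes, and 22 of the 28 fold changes were negative, beside 6535 of 13304. In 17 members the genotypes were fully separated, with no overlap of levels (38.9% of all tested genes), of which 14 were lower (19.2%) and 3 were higher (19.7%). Echdc1 and Acot6 were under the low-count limit in at least 1 library, and without them 26 members gave 2 calls higher, 4 calls lower and a median of -0.41. Echdc1 also shares 75.9% of its exon bases with Rnf146, which fell too, as described below. The summed level of all 36 members ran from 2949 to 3278 CPM over the wild-type livers and from 2311 to 2873 CPM over the knockouts.

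**Figure D1:**
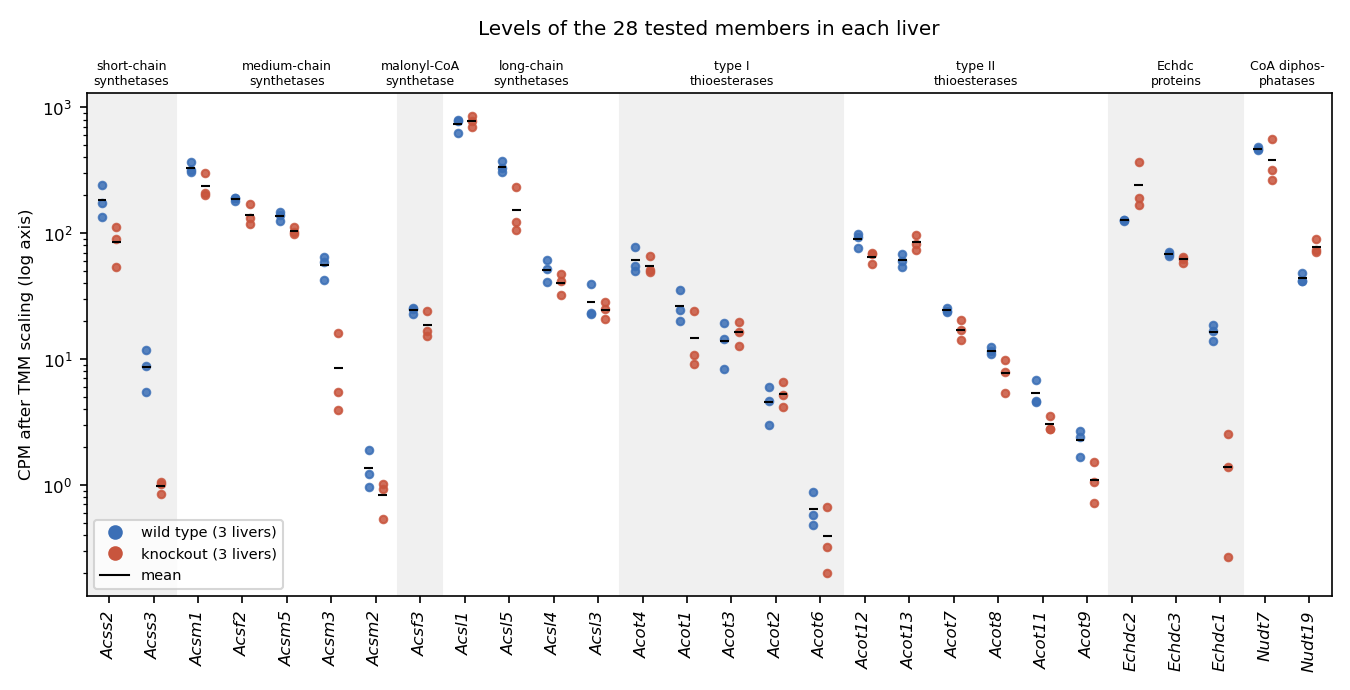
Level of each tested member per library in CPM (log axis), grouped by chain-length class, with wild-type livers and knockout livers as separate points. The knockout points of Acss3, Acsm3 and Echdc1 lie far below the wild-type points, while those of Acsl1 overlap them.

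**Figure D2:**
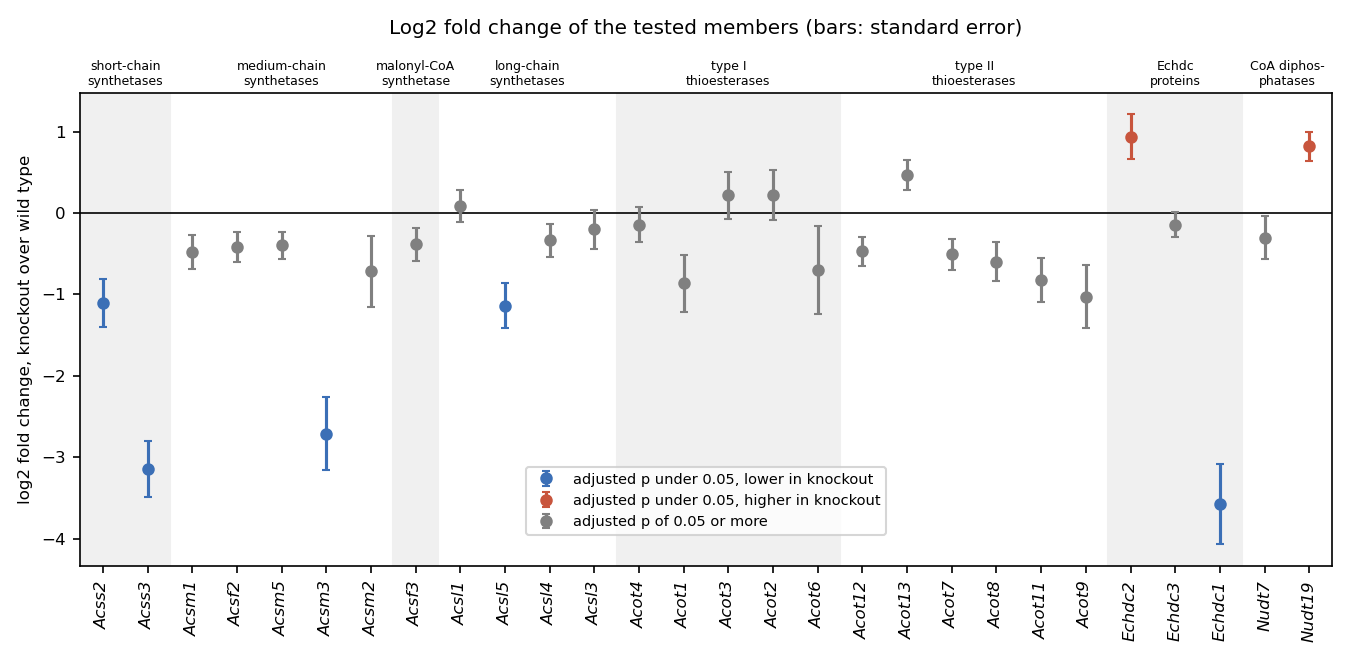
Log2 fold change of each tested member, knockout over wild type, with bars for the SE and colour for an adjusted p under 0.05. Of the 28 points, 22 lie below 0, 5 of them called lower, and the 2 called higher are Echdc2 and Nudt19.

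The calls of the 2 rises were lost under scaling by library totals, and those of the 5 falls were kept. Echdc2 and Nudt19 were still called higher with DESeq2, TMM without mitochondrial genes, other filters and limma-voom. TMM holds most genes near 0, whereas scaling by library totals shifted the median of all tested genes to -0.16 and the calls from 1165 higher and 1103 lower to 690 higher and 1566 lower. Under library totals Echdc2 had a log2 fold change of 0.71 (adjusted p = 0.0630) and Nudt19 one of 0.66 (adjusted p = 0.0611), so neither was called higher. The 5 members that fell were called lower under both, and Acot11 and Acot12 were called lower in addition.

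The short-chain synthetases make acetyl-CoA and propionyl-CoA from the free acids. Both tested members fell. Acss3, a mitochondrial enzyme that prefers propionate (ENSMUSG00000035948, chr10:106933517-107123668, minus strand), had 8.79, 11.8 and 5.43 CPM in wild type 2, 4 and 11 and 1.06, 1.02 and 0.842 CPM in knockout 1, 2 and 4. The 3 knockout levels lay close together, and the lowest wild-type level was well above them. The log2 fold change was -3.15 ± 0.35 (SE, n = 3 per genotype, adjusted p = 0.00235), or 8.86-fold lower. It rests on 185, 222 and 117 wild-type counts against 16, 19 and 14.

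Acss2, the cytosolic and nuclear acetyl-CoA synthetase and a classical target of the sterol regulatory element binding proteins (ENSMUSG00000027605, chr2:155517948-155585724, plus strand), had 172, 244 and 135 CPM in wild type and 112, 54.2 and 89.1 CPM in knockout. Its groups did not overlap, but wild type 11 and knockout 1 were near each other. Acss2 had a log2 fold change of -1.11 ± 0.29 (adjusted p = 0.0286). Acss1, the mitochondrial acetyl-CoA synthetase, had 7, 3 and 10 counts in wild type and 13, 4 and 7 in knockout and was not tested. Acss2os had 5, 0 and 3 counts against 0, 0 and 2. Per kilobase of all exons, Acss2 stood at 18.1 ± 5.43 CPM in wild type (SD, n = 3) and Acss3 at 1.21 ± 0.445, while with the longest transcript as the length they stood at 50.9 ± 15.3 and 1.85 ± 0.682. By all exons Acss2 made up 93.4% of the short-chain level in wild type and 97.0% in knockout.

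Acsm and Acsf2 enzymes activate medium-chain acids, and the Acsm enzymes also feed the conjugation of benzoate and other xenobiotic acids with glycine. Of 5 tested, Acsm3 fell. Acsm3 (ENSMUSG00000030935, chr7:119760923-119787513, plus strand) had 59.5, 64.7 and 42.2 CPM in wild type and 5.50, 3.92 and 16.1 CPM in knockout. Knockout 4 was the highest of the knockout livers and still below every wild-type liver. Acsm3 had a log2 fold change of -2.71 ± 0.44 (adjusted p = 0.00669), or 6.54-fold lower. Without knockout 4 it was -3.58 ± 0.27 (adjusted p = 0.000104).

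The other Acsm genes lie beside Acsm3, 5 genes on the plus strand within 268.1 kb of chromosome 7 (chr7:119519463-119787513). Acsm1, the most abundant member per kilobase in wild type (153 ± 14.3 CPM per kilobase), had 321, 309 and 368 CPM in wild type and 209, 203 and 303 CPM in knockout. Its groups did not overlap, with knockout 4 just under the lowest wild-type liver, and its log2 fold change of -0.48 ± 0.21 was not called (adjusted p = 0.128). Acsm5 had a log2 fold change of -0.40 ± 0.17 (adjusted p = 0.123), also without overlap. Acsm2 was near 1 CPM in every library, with a log2 fold change of -0.72 ± 0.43 (adjusted p = 0.267), and Acsm4 had 0 counts in all 6. Acsf2, a mitochondrial relative outside the cluster, had 191, 181 and 191 CPM in wild type and 118, 132 and 170 CPM in knockout, without overlap. Its log2 fold change was -0.42 ± 0.19 (adjusted p = 0.139). The medium-chain class summed to 255 ± 9.91 CPM per kilobase in wild type and 179 ± 33.4 in knockout. Acsm1 contributed 59.8% and 60.6% of these sums, so its share hardly differed.

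Acsf3 activates malonate and methylmalonate in mitochondria. It had 24.8, 22.8 and 25.6 CPM in wild type and 16.6, 15.3 and 24.2 CPM in knockout. Only knockout 4 reached the wild-type range, and the log2 fold change was -0.38 ± 0.20 (adjusted p = 0.212).

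The long-chain synthetases activate palmitate, oleate and similar acids, and of 4 tested Acsl5 fell. Acsl1, the main liver form, which feeds both oxidation and triglyceride synthesis, had 627, 797 and 782 CPM in wild type and 859, 785 and 697 CPM in knockout. The groups overlapped, and the log2 fold change was 0.09 ± 0.19 (adjusted p = 0.784). Acsl5, found on mitochondria and endoplasmic reticulum (ENSMUSG00000024981, chr19:55251938-55297720, plus strand), had 330, 377 and 307 CPM in wild type and 123, 107 and 232 CPM in knockout. Knockout 4 lay between the other knockout livers and the wild type, and no levels overlapped. For Acsl5 the log2 fold change was -1.14 ± 0.28 (adjusted p = 0.0227), or 2.20-fold lower.

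Acsl4, which prefers arachidonate, had a log2 fold change of -0.34 ± 0.21 (adjusted p = 0.277), and Acsl3, an enzyme of lipid droplets and endoplasmic reticulum, one of -0.20 ± 0.24 (adjusted p = 0.586). Both overlapped between genotypes. Acsl6, a form known from brain, had 0 to 4 counts per library. Per kilobase, Acsl1 and Acsl5 were level in wild type, at 70.2 ± 9.02 and 69.6 ± 7.36 CPM per kilobase, a difference within their spread. In knockout they stood at 74.4 ± 7.73 and 31.6 ± 14.0. Acsl1 supplied 42.6, 45.1 and 47.2% of the summed long-chain level in the wild-type livers, against 68.5, 67.9 and 52.1% in the knockouts. That of Acsl5 averaged 44.8% and 26.1%. With the longest transcript in place of all exons as the length, Acsl1 averaged 57.2% and 73.4% and Acsl5 35.4% and 19.2%, so their parity in wild type depends on the length used. The bubblegum synthetases, named after a fly mutant, were near 0, with 0 to 2 counts of Acsbg1 in wild type, 2 to 5 in knockout and 0 of Acsbg2 throughout.

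**Figure D3:**
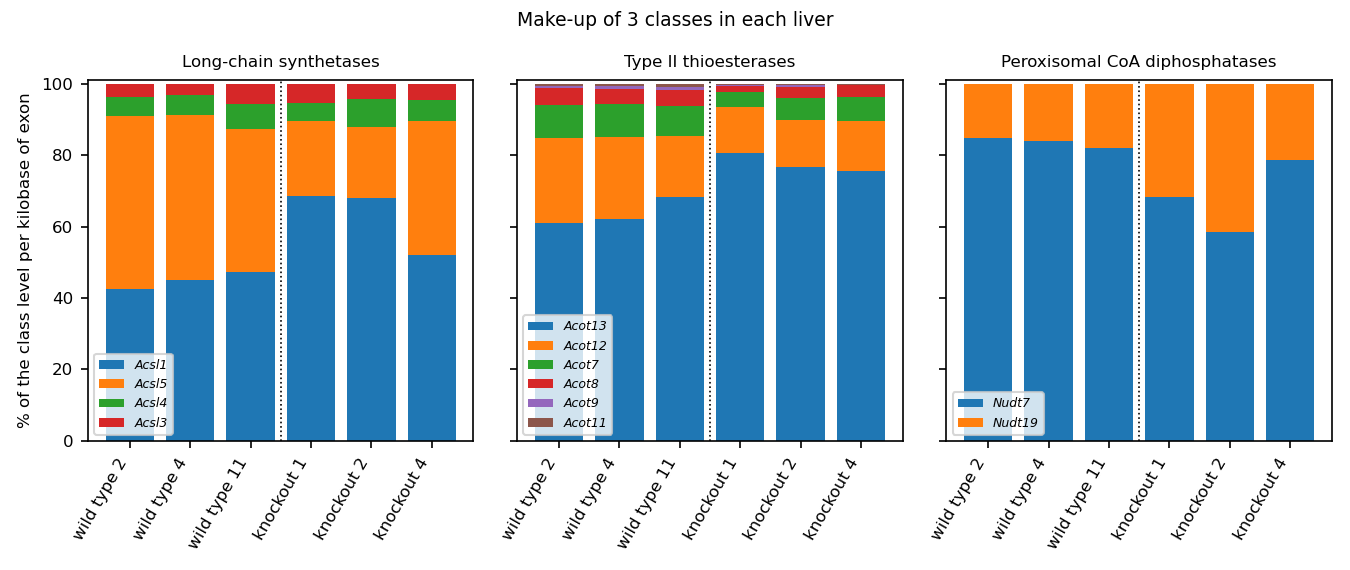
Share of each member in the summed level per kilobase of its class, in percent, in each of the 6 livers, for long-chain synthetases, type II thioesterases and CoA diphosphatases. Acsl1 makes up 42.6 to 47.2% of the long-chain level in wild type and 52.1 to 68.5% in knockout, where the Acsl5 part is smaller.

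Type I thioesterases form a cluster of 6 genes on the plus strand within 123.5 kb of chromosome 12 (chr12:83987861-84111349). They share an alpha/beta hydrolase fold and differ in where the protein goes, Acot1 to the cytosol, Acot2 to mitochondria and Acot3, Acot4 and Acot6 to peroxisomes. None of the 5 tested was called, and only Acot1 had an unadjusted p under 0.05; DESeq2 and limma-voom called none either. With no filter on low counts Acot1 was called lower, at -0.91 ± 0.22 (adjusted p = 0.000806), and without knockout 4 at -1.43 ± 0.26 (adjusted p = 0.00403). The coding sequences of Acot1 and Acot2 were 95.6% identical over 1236 aligned bases and shared an unbroken run of 273 bases. Acot1 and Acot3 were 84.0% identical. The stretch below, from the coding sequences of GENCODE M21 (GRCm38), shows where that run begins, because reads from within it cannot be given to either gene. It covers coding bases 847 to 946 of Acot1 and 970 to 1069 of Acot2, and capitals mark the 8 bases that differ. The last 60 bases are the start of the shared run.
Acot1: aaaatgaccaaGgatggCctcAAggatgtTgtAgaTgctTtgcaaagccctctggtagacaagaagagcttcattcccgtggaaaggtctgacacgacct
Acot2: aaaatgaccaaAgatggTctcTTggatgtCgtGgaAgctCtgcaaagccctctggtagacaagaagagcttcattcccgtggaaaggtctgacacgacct

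How the authors treated such reads is not given in the sources used here, so the levels of Acot1, Acot2 and Acot3 are uncertain. Acot1 had 20.0, 24.6 and 35.3 CPM in wild type and 9.20, 10.7 and 23.9 CPM in knockout. Knockout 1 and 2 were below all wild-type livers and knockout 4 was within their range. The log2 fold change was -0.86 ± 0.35 (adjusted p = 0.109). Acot2 and Acot3, with 2.99 to 6.04 and 8.36 to 19.3 CPM in wild type, each had a log2 fold change of 0.22, with SE of 0.30 and 0.29 and adjusted p of 0.648 and 0.631. Acot4, which prefers succinyl-CoA, stood at 9.12 ± 2.21 CPM per kilobase of all exons in wild type, where Acot1 averaged 6.79, while with the longest transcript as the length their means were 9.81 and 10.2. Acot4 had a log2 fold change of -0.14 ± 0.21 (adjusted p = 0.666). Acot6 had 3 to 19 counts per library and a log2 fold change of -0.70 ± 0.54 (adjusted p = 0.391). Acot5 had 1 count, in wild type 4.

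Type II thioesterases share the hotdog fold and are scattered over the genome. All 6 tested members separated the genotypes without overlap, as 38.9% of all tested genes did, but none was called, with adjusted p of 0.0613 to 0.105. By unadjusted p under 0.05, 5 were lower and 1 was higher, beside 2254 lower and 2272 higher of all 13304 tested genes, and DESeq2 and limma-voom also called none. Other settings called some of them lower, Acot11 with no filter on low counts (adjusted p = 0.0395), Acot11 and Acot12 under library totals (adjusted p = 0.0309 and 0.0456), and Acot7 and Acot8 without knockout 4 (adjusted p = 0.0188 and 0.0255). Acot13, a small mitochondrial enzyme also known as Them2, had 54.1, 60.2 and 68.9 CPM in wild type and 96.5, 74.1 and 82.8 CPM in knockout. It was the member of the class with the higher knockout level, at a log2 fold change of 0.47 ± 0.18 (adjusted p = 0.0972). Acot12, a cytosolic acetyl-CoA hydrolase of liver, had 94.1, 98.7 and 76.3 CPM in wild type and 69.4, 56.9 and 67.9 CPM in knockout, a log2 fold change of -0.47 ± 0.18 (adjusted p = 0.0924). All 3 knockout livers were close to each other and below the lowest wild-type liver.

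Acot7, a cytosolic enzyme for long-chain esters, had a log2 fold change of -0.51 ± 0.19 (adjusted p = 0.0815). Acot8, the broad-range peroxisomal thioesterase, had one of -0.60 ± 0.24 (adjusted p = 0.105). Acot11, known as Them1 and studied in brown fat, had 4.65, 4.53 and 6.78 CPM in wild type and 3.51, 2.79 and 2.77 CPM in knockout, a log2 fold change of -0.82 ± 0.27 (adjusted p = 0.0613). Acot9, a mitochondrial enzyme at 1.66 to 2.69 CPM in wild type, had a log2 fold change of -1.03 ± 0.39 (adjusted p = 0.0897). Its coding sequence is 97.2% identical to that of Acot10, which had 0 counts throughout, so reads of the pair could be divided or lost. Acot13 made up 63.7% of the class level per kilobase in wild type and 77.6% in knockout, and Acot12 made up 21.3% and 13.5%.

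The Echdc proteins moved apart. Echdc1 is ethylmalonyl-CoA decarboxylase, which clears a side product of acetyl-CoA and propionyl-CoA carboxylases. Echdc1 (ENSMUSG00000019883, chr10:29313166-29347469, plus strand) had 16.7, 18.8 and 13.9 CPM in wild type and 1.39, 0.268 and 2.53 CPM in knockout, from 352, 352 and 299 counts against 21, 5 and 42. Knockout 2 was near the floor, and all 3 knockout levels were far under the wild-type range. The log2 fold change was -3.57 ± 0.50 (adjusted p = 0.00445), or 11.9-fold lower. Without knockout 4 it was -4.38 ± 0.47 (adjusted p = 0.000381).

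The Echdc1 exons overlap those of Rnf146, a ubiquitin ligase gene on the opposite strand, over 75.9% of their 4125 bases. Rnf146 had 106, 123 and 75 counts in wild type and 23, 28 and 39 in knockout, and it fell too, by 1.48 ± 0.33 on the log2 scale (adjusted p = 0.0167). The strandedness of the counting is not given in the sources used here, so reads of the pair cannot be told apart over the shared bases. Other members called had smaller overlaps. Acsm3 overlaps Eri2 over 39.7% of its exon bases, and Eri2 had a log2 fold change of 0.42 ± 0.33 (adjusted p = 0.396). Acss3 overlaps Ppfia2 over 33.9%, and Ppfia2 had 0 to 9 counts per library. Nudt19 overlaps the antisense RNA B230322F03Rik over 35.0%, which had 0 to 4 counts.

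Echdc2, a mitochondrial hydratase-like protein (ENSMUSG00000028601, chr4:108165437-108179308, plus strand), had 126, 127 and 126 CPM in wild type and 368, 167 and 190 CPM in knockout. The wild-type livers were almost identical, and knockout 1 was far above the other knockout livers, which also exceeded the wild type. The log2 fold change was 0.93 ± 0.28 (adjusted p = 0.0435). Without knockout 1 it was 0.49 ± 0.18 (adjusted p = 0.127), and that library had the highest mitochondrial share. The call was also lost without any 1 of the wild-type livers, where the log2 fold change stayed at 0.92 and the adjusted p was 0.118, 0.127 and 0.101 without wild type 2, 4 and 11. Echdc3, a mitochondrial protein of the same family, had 66.1, 67.9 and 70.8 CPM in wild type and 64.2, 58.4 and 62.8 CPM in knockout, a log2 fold change of -0.14 ± 0.16 (adjusted p = 0.550).

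Nudt7 and Nudt19 degrade CoA in peroxisomes, and Nudt7 is the main form of mouse liver. Nudt7 had 488, 460 and 464 CPM in wild type and 318, 264 and 562 CPM in knockout. Knockout 4 lay above every wild-type liver and the other 2 below, and the log2 fold change was -0.30 ± 0.26 (adjusted p = 0.448). Nudt19, described most from kidney (ENSMUSG00000034875, chr7:35547185-35556304, minus strand), had 41.8, 42.0 and 48.4 CPM in wild type and 70.6, 89.5 and 73.0 CPM in knockout. Every knockout liver exceeded every wild-type liver, and the log2 fold change was 0.82 ± 0.17 (adjusted p = 0.0138). It supplied 15.2, 16.1 and 18.0% of the pair's summed level per kilobase in the wild-type livers, against 31.7, 41.6 and 21.4% in the knockouts. Kidney markers were near 0, as given above, and the cause of the Nudt19 rise was not tested.

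The knockout livers did not depart equally from the wild type. Against the wild-type mean of log2(CPM + 0.5), the median of the 28 tested members was -0.55 in knockout 1, -0.51 in knockout 2 and -0.18 in knockout 4. Over all tested genes the medians of the same libraries were -0.00, 0.02 and -0.01. Knockout 4, the knockout with the lowest mitochondrial share, was the nearest of the 3 to wild type in 13 of the 28 members (46.4%), beside 51.7% of all tested genes. Without knockout 4, 4046 genes were called and 12 members were lower, with Acot1, Acot7, Acot8, Acsf2, Acsf3, Acsm1 and Nudt7 added. With knockout 4 as the lone knockout, an alternative chosen after the data had been seen, only 25 genes were called, Echdc1 among them as the sole member. Among the called members, knockout 4 was the nearest to wild type for Acsm3, Acsl5 and Echdc1, but not for Acss3, Acss2, Echdc2 and Nudt19. For Acss3 its level was the lowest of the 3.

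**Figure D4:**
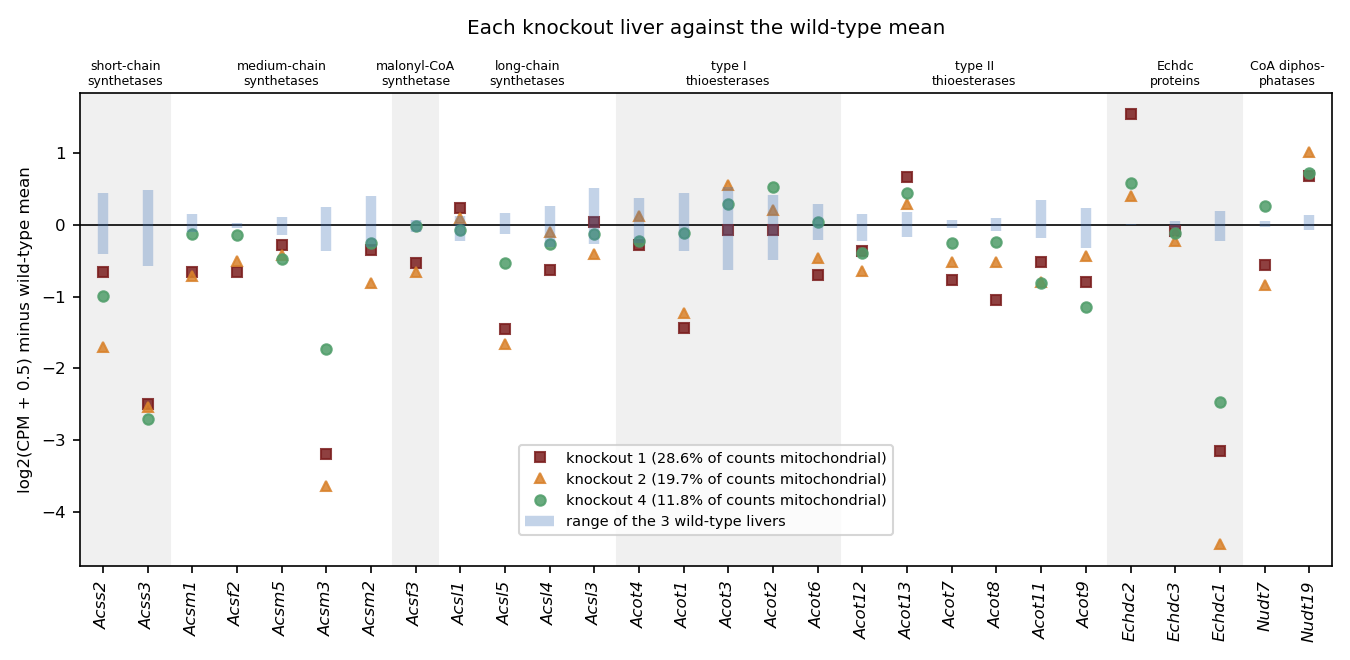
Each knockout liver minus the wild-type mean on the scale log2(CPM + 0.5), per tested member, with a band for the range of the 3 wild-type livers. Knockout 1 and 2 lie lowest for Acsm3, Acsl5, Acot1 and Nudt7, and the 3 knockout livers lie together for Acss3.

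With the mitochondrial share of each library added as a covariate, no gene was called by edgeR (1146 at an unadjusted p under 0.05), and 6 members had an unadjusted p under 0.05. The share is itself higher in every knockout, so share and genotype cannot be told apart. In that fit the log2 fold changes were -3.35 ± 0.68 for Acss3 (adjusted p = 0.329), -2.84 ± 0.82 for Echdc1 (adjusted p = 0.452) and -1.60 ± 0.54 for Acsm3 (adjusted p = 0.528). Those of Acsl5 and Echdc2 were -0.46 ± 0.35 (adjusted p = 0.717) and 0.09 ± 0.32 (adjusted p = 0.953). Those of Acss2 and Nudt19 were -1.38 ± 0.49 (adjusted p = 0.539) and 0.86 ± 0.27 (adjusted p = 0.490). Acss3, Echdc1 and Acsm3 were called in all 6 fits that left out 1 library, with adjusted p of at most 0.0147, 0.0214 and 0.0303. Acss2 and Nudt19 were called in 3 of the 6, and Acsl5 and Echdc2 in 2. Without wild type 2, wild type 4 or knockout 2, the adjusted p was 0.0594, 0.112 and 0.0830 for Acss2 and 0.0760, 0.0764 and 0.0507 for Nudt19. Acsl5 reached an adjusted p of 0.0553 and 0.0807 when wild type 2 or 4 was omitted, and of 0.0901 and 0.0735 when knockout 1 or 2 was.

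**Figure D5:**
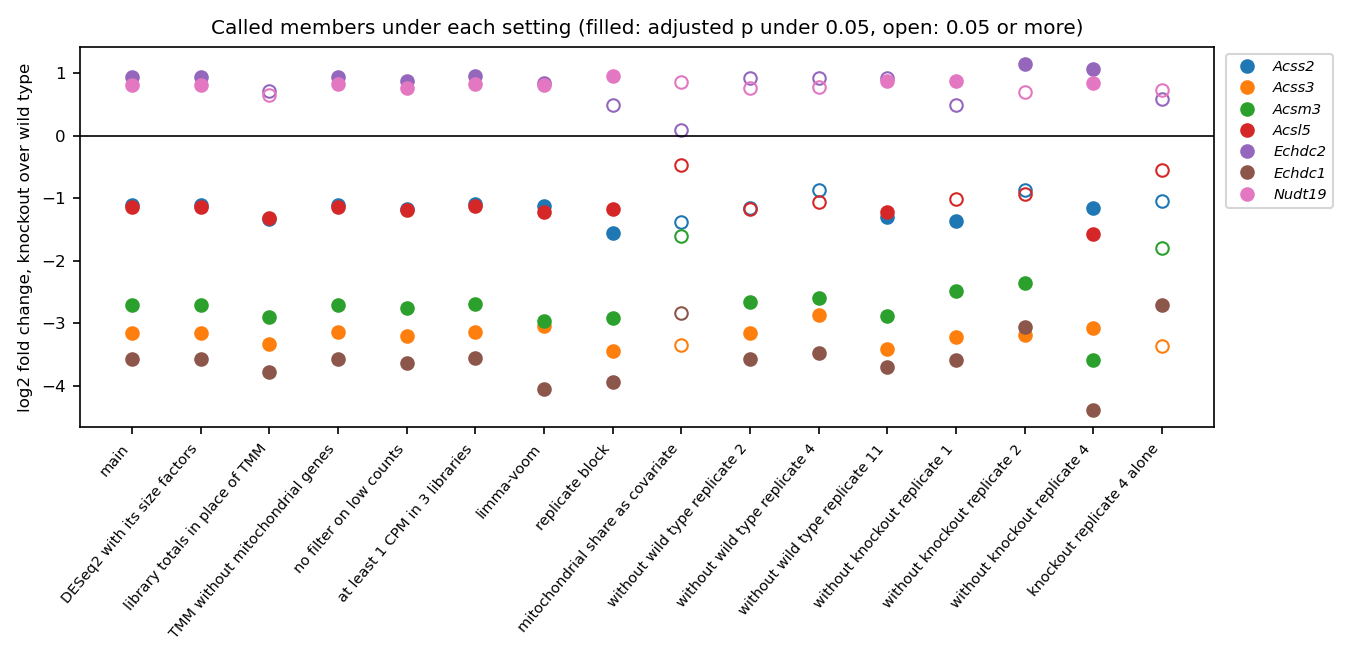
Log2 fold change of each of the 7 called members under the main analysis and each alternative, with filled points for an adjusted p under 0.05. Acss3, Echdc1 and Acsm3 stay below -1.5 throughout, while Echdc2 lies between 0.09 and 1.14.

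Promoter sequence was examined for the members, using the 250 bases before each RefSeq start (GRCm38.p6). Windows were found for 32 members, 41 windows in all, some overlapping where a gene has several starts. Acss3, Acot6, Acot13 and Acsbg2 had no entry. The letters searched, on both strands, were AGGTCA, the half-site of nuclear receptors, the same half-site repeated in direct order with any 1 base between, as bound by PPARalpha, and GGGCGG, known from housekeeping promoters. The letters of the CCAAT box and of the TATAAA element completed the search. Every repeat also counts as a half-site. CCAAT was in 23 of 41 member windows (56.1%) and in 33.9% of all 32851 windows of this length. GGGCGG was in 46.3% of member windows and 32.7% of all, AGGTCA in 17.1% and 14.0%, and TATAAA in 9.76% and 12.4%. No member window held the direct repeat, which was in 0.033% of all windows.

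CCAAT was in the windows of Acsl5, Acsm3, Acss2 and Echdc1, the 4 members that fell and had an entry. The windows of Echdc2 and Nudt19, which rose, did not hold it. All 250 bases of the Nudt19 window and 95 of the Acss2 window lie in annotated exons of the same gene. Of the 32 members with a window, 19 held CCAAT, and 4 of these were called. A link between CCAAT and direction was not tested. Such matches describe the letters and do not show a bound site. The windows of called members that hold no exon base of the same gene are printed, so that the matches can be seen in place, and capitals mark matches to any of these motifs on either strand. They are Acsl5 at chr19:55253119-55253368, which lies inside the span of a longer transcript, Acsm3 at chr7:119760673-119760922, Echdc1 at chr10:29312916-29313165 and Echdc2 at chr4:108165187-108165436, all on the plus strand. In Echdc1 the run of capitals is CCAAT on both strands, with 2 bases shared.
Acsl5: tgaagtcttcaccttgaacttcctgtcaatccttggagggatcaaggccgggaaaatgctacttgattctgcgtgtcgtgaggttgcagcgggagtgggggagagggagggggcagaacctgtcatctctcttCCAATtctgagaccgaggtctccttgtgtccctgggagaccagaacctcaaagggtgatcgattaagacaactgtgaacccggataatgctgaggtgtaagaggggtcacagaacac
Acsm3: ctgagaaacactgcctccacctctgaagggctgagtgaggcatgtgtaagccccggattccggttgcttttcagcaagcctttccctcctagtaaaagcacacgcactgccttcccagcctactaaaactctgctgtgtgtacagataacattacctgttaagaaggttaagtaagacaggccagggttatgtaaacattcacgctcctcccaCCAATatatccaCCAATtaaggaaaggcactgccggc
Echdc1: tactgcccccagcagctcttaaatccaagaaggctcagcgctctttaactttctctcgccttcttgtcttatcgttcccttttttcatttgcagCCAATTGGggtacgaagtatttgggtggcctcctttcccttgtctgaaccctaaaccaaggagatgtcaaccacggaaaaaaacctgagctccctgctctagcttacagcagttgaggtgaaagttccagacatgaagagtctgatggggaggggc
Echdc2: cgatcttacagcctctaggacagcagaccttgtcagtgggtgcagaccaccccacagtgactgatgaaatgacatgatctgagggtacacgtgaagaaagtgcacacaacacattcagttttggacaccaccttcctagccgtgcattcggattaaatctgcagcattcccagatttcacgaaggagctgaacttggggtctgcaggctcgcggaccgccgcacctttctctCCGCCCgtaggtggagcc

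Genes around the members were read from lists by role. Each count of calls stands beside 17.0% of all tested genes called, 8.76% higher and 8.29% lower. Among 15 genes of CoA synthesis, transport and turnover, 3 rose and 2 fell (33.3%), with a median log2 fold change of 0.04. Ppcdc, which decarboxylates phosphopantothenoylcysteine, rose by 1.54 ± 0.30 (adjusted p = 0.0115), and Nudt8, a mitochondrial CoA hydrolase, rose by 2.23 ± 0.46 (adjusted p = 0.0123), from 5 to 9 counts in wild type and 21 to 38 in knockout. Coasy, which carries out the last steps of CoA synthesis, fell by 1.12 ± 0.29 (adjusted p = 0.0268), and Pank2, a pantothenate kinase, by 1.05 ± 0.22 (adjusted p = 0.0130). These are log2 values, and the genes of this route that moved did so in opposite directions.

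Of 16 tested genes that handle propionyl-CoA, ethylmalonyl-CoA and the electrons of acyl-CoA dehydrogenases, 2 rose and 4 fell, with a median of -0.22. Calls made up 37.5% of them and 17.0% of all tested genes. Pccb and Pcca, the subunits of propionyl-CoA carboxylase, fell by 1.34 ± 0.26 (adjusted p = 0.0102) and 1.10 ± 0.27 (adjusted p = 0.0231) on the log2 scale. Etfdh, which passes electrons to ubiquinone, fell by 1.67 ± 0.33 (adjusted p = 0.0118), whereas Etfb, a subunit of the electron transfer flavoprotein, rose by 2.05 ± 0.28 (adjusted p = 0.00437) and Mcee, the epimerase of the route, by 0.82 ± 0.19 (adjusted p = 0.0200). Acss3 and Echdc1, which act on propionate and ethylmalonyl-CoA, also fell, though Echdc1 shares 75.9% of its exon bases with Rnf146. Whether these falls are linked to those of the carboxylase subunits was not tested.

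Among 11 tested relatives that activate or import acids, 18.2% were called. Sucla2, a subunit of succinyl-CoA synthetase, fell by 1.30 ± 0.27 (adjusted p = 0.0122) and Cd36, a fatty acid transporter, by 0.71 ± 0.22 (adjusted p = 0.0497). Of 14 other thioesterases and acyl transferases, 7.14% were called. Lypla2, a protein depalmitoylase, rose by 0.64 ± 0.19 (adjusted p = 0.0426). Of 13 acyl-CoA binding and carnitine shuttle genes none was called by edgeR or limma-voom, while DESeq2 called 1, and 1 was higher and 2 were lower at an unadjusted p under 0.05.

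Many members are known targets of PPARalpha, the fatty acid receptor, and Acss2 of the SREBP factors. Of 24 tested genes in the list of PPARalpha and its targets, 5 fell, Ppara among them, and none rose by edgeR, with 3 higher and 9 lower at an unadjusted p under 0.05 and 8 called by DESeq2. The 5 calls, all lower, made up 20.8% of the 24, beside 17.0% of all tested genes called and 8.29% called lower. The median of the 24 was -0.24. Ppara had 88.5, 75.1 and 45.0 CPM in wild type and 24.4, 20.9 and 25.1 CPM in knockout, a fall of 1.57 ± 0.24 (adjusted p = 0.00578). Hadha, a subunit of the mitochondrial trifunctional protein, fell by 0.95 ± 0.20 (adjusted p = 0.0139), Ehhadh, the peroxisomal bifunctional enzyme, by 1.02 ± 0.24 (adjusted p = 0.0189) and Decr1, a dienoyl-CoA reductase, by 0.99 ± 0.27 (adjusted p = 0.0324). Of 15 SREBP targets, 2 were called, both lower, or 13.3%, beside 17.0% of all tested genes called and 8.29% called lower. Acly, ATP citrate lyase, fell by 1.52 ± 0.20 (adjusted p = 0.00425) and Acaca, acetyl-CoA carboxylase, by 0.83 ± 0.23 (adjusted p = 0.0328). The median of the 15 was -0.43. Srebf1 had a log2 fold change of -0.10 ± 0.22 (adjusted p = 0.788).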

How the data were processed

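Per the labels' protocols, liver RNA of 6 mice was purified on RNeasy columns and converted to libraries with a SMARTer kit. The values deposited by the authors are raw counts per gene, as whole numbers with no normalization. Per the submitters' processing notes, mm10 was the build. The aligner, the counter, its strand setting and its handling of ambiguous reads were not given in the sources used here. Of the 54232 identifiers, 54079 were found in GENCODE M21 (same build), all 36 members among them, and 98 symbols named more than 1 identifier.

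From the counts, edgeR 4.0.16 in R 4.3.3 (quasi-likelihood F test, TMM, filterByExpr with a minimum count of 10) tested 13304 genes, two-sided, with Benjamini-Hochberg adjustment over all of them and calls at 0.05. The SE is the absolute log2 fold change over the square root of F. Single-library changes used log2(CPM + 0.5). Levels per kilobase used all annotated exons. Chi-square comparisons gave 21.04 to 170.6 per degree of freedom between libraries of 1 genotype, so each was counted as a separate sample. Nothing beyond their labelling as livers of 3 mice per genotype is known of them, and the p-values reflect only the variation among these samples. Reads carry no molecular identifiers.

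DESeq2 1.42.0, limma-voom (limma 3.58.1), other scalings and filters, a replicate block, the mitochondrial share as a covariate and the omission of each library were alternatives. The test was checked on simulated data of 13095 genes, where it called 33.3% of 99 true 2-fold changes and 88.5% of 96 true 4-fold changes. Of 131 calls there, 13 were false. Far fewer genes changed in the simulation than the 2268 called in these data, so these rates need not hold here. A member that was not called can still differ by 2-fold. The members, their classes and the gene lists were chosen with earlier results of these data known. Every member is named, as are Rtn4, up to 4 called genes of each list by smallest p, and Ppara and Srebf1. Alb, Pcca and genes that overlap or resemble members were named after their values were seen.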

Additional observations from a re-analysis of the deposited data

How the results depend on the processing

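The 5 falling members were called under DESeq2, library totals, TMM without mitochondrial genes, other filters and limma-voom. Echdc2 and Nudt19 were called higher under the same settings except library totals. Library totals left 0 members called higher, and the covariate of mitochondrial share left 0 higher, 0 lower and 0 genes in all by edgeR (1146 at an unadjusted p under 0.05). Leaving out 1 library gave 630 (without wild type 4) to 4046 (without knockout 4) genes, 0 to 2 members higher and 3 to 12 lower. The count was also over 1.5 times smaller without wild type 2 (827), knockout 1 (804) or knockout 2 (979). Knockout 4 alone, chosen after the data had been seen, gave 25 genes, 0 members higher and 1 lower, with the spread taken from wild type alone. With a replicate block, which has 1 residual degree of freedom, 1686 genes, 1 member higher and 5 lower were called, and Echdc2 had 0.49 ± 0.27 (adjusted p = 0.240). Same-numbered livers correlated at -0.05 (number 2) and 0.06 (number 4), within the -0.09 to 0.07 of the other pairs. With so few such pairs, whether the numbers mark a pairing cannot be told. None of the members that changed sign was called in the main analysis. With the covariate, log2 fold changes became -0.15 for Acsl1, 0.017 for Acsf3, 0.29 for Nudt7, 0.12 for Acot1, 0.49 for Acot6 and 0.046 for Acot8. Under library totals Acsl1 had -0.093. Over the fits without 1 library, Acsl1 ran from -0.029 (without wild type 2) to 0.15, Acsl3 from -0.35 to 0.097 (without wild type 11), Acot4 from -0.29 to 0.058 (without wild type 4), Acot3 from -0.060 (without wild type 2) to 0.50 and Acot2 from -0.023 (without wild type 2) to 0.47. In knockout 4 alone, Acsl1 had -0.076, Nudt7 0.26 and Acot6 0.034. With the longest transcript as length, wild-type class levels were 137 (Echdc), 226 (long-chain), 9.36 (malonyl), 282 (medium-chain), 152 (diphosphatases), 52.8 (short-chain) and 142 (type II) CPM per kilobase. Genes with few counts, such as Acot6, Acsm2 and Acot9, are limited by depth, and the 8 untested members allow no comparison.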
